A study of Homo sapiens with 15 samples.

Results

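The transcripts described here are those of the mitochondrial genome, measured in a translation-competent cytosolic extract of U2OS cells, a human osteosarcoma line, and in the material that pelleted from it. Members were all genes that the count files place on chromosome MT, which gave 35 of 57500 genes, 13 mRNAs and 22 tRNAs. The 2 mitochondrial rRNAs had no row in the files used and were not analysed here. All 13 mRNAs and 11 of the 22 tRNAs passed the filter on low counts, under which a gene needed a count of 10 or more in 2 or 3 replicates of every condition. The other 11 tRNAs are given by their counts.

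There were 5 groups of 3 biological replicates, 15 libraries in all. Input was extract that was not pelleted; whether it went through an incubation is not stated. The 4 pellet groups came from in vitro translation reactions of 2 h at 37 °C that were then spun and washed: mock (no addition), dsRNA (250 nM double-stranded RNA, an activator of the kinase PKR), silvestrol (2 µg/ml, an inhibitor of the RNA helicase eIF4A) and PEG (1% polyethylene glycol, a molecular crowder). The labels give wild type U2OS as the genotype of every library, whereas the methods describe pellets of YFP-G3BP1 condensates, so it was not settled whether the cells carried that reporter. All groups share 1 line, and pelleting and washing separate every pellet group from input along with any added agent. RNA was poly(A)-selected before sequencing. Library totals ran from 15341973 counts (PEG replicate 1) to 46939993 counts (input replicate 2).

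The line was checked against its markers in CPM (a count scaled to a fixed library total) without further normalisation. Of 6 markers of the line, VIM lay between 976 and 2281 and SPARC between 466 and 658 in every library. COL1A1 lay between 253 and 1875 and RUNX2 between 38.4 and 80.7. ALPL was low at 1.48 to 5.15, and COL1A2 was near 0 at 0.0389 to 0.314. Of 4 markers of other cell types, ALB was at 0 in 13 libraries, PTPRC reached 0.486, CD34 8.13 and EPCAM 14.3. Of 4 RNAs that are retained in nuclei, MEG3 was at or near 0, and the summed level of the 4 was 741 to 1082 in input, 993 to 1756 in mock, 955 to 1816 in dsRNA, 921 to 1719 in silvestrol and 536 to 1082 in PEG. None of the 3 tested nuclear RNAs was called in mock, dsRNA or silvestrol against input; with PEG, MALAT1 was called higher (log2 fold change 1.43 ± 0.22, SE, edgeR adjusted p 0.00104) and NEAT1 lower (-0.98 ± 0.24, edgeR adjusted p 0.00861). The part of nuclear RNA in the results below was not tested.

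Human mitochondrial DNA is a small circle that is transcribed from both strands into long polycistronic RNAs. The tRNAs lie between most of the mRNAs, and excision of the tRNAs by RNase P and ELAC2 releases the mRNAs. Most, but not all, of the mRNAs then receive short poly(A) tails. The 13 mRNAs encode subunits of complexes I, III, IV and V of the oxidative phosphorylation system, and the other subunits of these complexes are encoded in the nucleus and translated in the cytosol. In the files, 12 mRNAs and 14 tRNAs lie on the plus strand, and MT-ND6 and 8 tRNAs on the minus strand. Mature tRNAs carry a CCA end and no long poly(A) tail, so poly(A) selection does not target them.

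Many members touch or overlap their neighbours, and the strand setting of the counting was not given in the sources used here. MT-ATP8 and MT-ATP6 share 46 bases, MT-ND4L and MT-ND4 share 7, MT-TI and MT-TQ share 3, and MT-ATP6 and MT-CO3 share 1. MT-ND5 and MT-ND6 abut on opposite strands. Reads that run across such borders, and reads of a gene and of an RNA antisense to it, could not be told apart. Counts of the tRNA genes may therefore include fragments of longer RNAs that span them.

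The tRNA genes on which the largest falls rest are MT-TN (tRNA-Asn), MT-TC (tRNA-Cys) and MT-TY (tRNA-Tyr), which lie side by side on the minus strand at MT:5657-5729, MT:5761-5826 and MT:5826-5891 of GRCh38. A gap of 31 bases separates MT-TN from MT-TC, and MT-TC and MT-TY share 1 base. MT-TP (tRNA-Pro), at MT:15956-16023 on the same strand, is shown beside them because it did not fall. The sequences are those of GENCODE release 29, read 5′ to 3′ on the gene's strand, with the anticodon in capitals.
MT-TN: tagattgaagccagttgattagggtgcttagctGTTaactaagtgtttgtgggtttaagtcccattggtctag
MT-TC: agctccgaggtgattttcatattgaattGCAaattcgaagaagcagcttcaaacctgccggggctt
MT-TY: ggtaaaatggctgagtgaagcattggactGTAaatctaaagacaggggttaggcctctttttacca
MT-TP: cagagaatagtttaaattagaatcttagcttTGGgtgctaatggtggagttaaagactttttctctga

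The mRNAs differ in whether their annotated gene holds the whole stop codon. In 6 of the 13 (MT-ND1, MT-ND2, MT-CO3, MT-ND3, MT-ND4 and MT-CYB) the gene ends in T or TA, and the poly(A) tail completes the codon, so these mRNAs need their tail to end translation. MT-ATP6 is counted as complete by its annotated end, but the last base of its TAA is also the first base of MT-CO3. The last 24 bases are given for 3 of the 6 and for 4 with a complete codon. AGA and AGG stand at the ends of MT-CO1 and MT-ND6. The encoded part of the stop codon is in capitals.
MT-ND2, MT:5488-5511, plus strand: ccccttttatactaataatcttaT
MT-CO3, MT:9967-9990, plus strand: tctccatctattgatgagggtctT
MT-ND3, MT:10381-10404, plus strand: aaaaaggattagactgaaccgaaT
MT-CO1, MT:7422-7445, plus strand: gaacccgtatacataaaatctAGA
MT-ND4L, MT:10743-10766, plus strand: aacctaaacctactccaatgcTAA
MT-ND5, MT:14125-14148, plus strand: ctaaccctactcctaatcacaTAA
MT-ND6, MT:14149-14172, minus strand: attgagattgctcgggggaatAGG

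As a class, the mitochondrial mRNAs took a larger share of the counts in pellets than in input. Counts are relative within a library, so more of these RNAs and less of the other RNAs in a pellet cannot be told apart. They held 0.440%, 0.465% and 0.363% of all counts in the input replicates. The mock pellets held 0.970%, 1.22% and 1.10%, the dsRNA pellets 1.42%, 1.26% and 0.945%, and the silvestrol pellets 1.18%, 1.31% and 1.07%. The PEG pellets lay between, at 0.708%, 0.699% and 0.465%. No mock, dsRNA or silvestrol library overlapped the input libraries, and the lowest PEG library lay just below the highest input library. After TMM normalisation, summed CPM of the 13 mRNAs were 4219 ± 559 in input, 10235 ± 965 in mock, 11386 ± 2519 in dsRNA, 11178 ± 1002 in silvestrol and 7629 ± 1519 in PEG (mean ± SD, n = 3 libraries). These sums were 2.43-fold (mock), 2.67-fold (dsRNA), 2.66-fold (silvestrol) and 1.79-fold (PEG) those of input, with no overlap between pellets and input. The exact two-sided permutation test gave p = 0.1 for each, which is the smallest p that 3 against 3 libraries can reach, and 0.32 after Benjamini-Hochberg adjustment over 16 comparisons of class sums. The PEG sums were 0.737-fold those of mock, again without overlap (exact permutation p = 0.1, adjusted 0.32). The mock, dsRNA and silvestrol sums overlapped each other.

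The tRNAs as a class did not follow the mRNAs. Their summed CPM were 68.6 ± 5.09 in input, 60.7 ± 22.3 in mock, 66.9 ± 13.6 in dsRNA, 64.6 ± 16.8 in silvestrol and 54.4 ± 28.5 in PEG (mean ± SD, n = 3), and the groups overlapped in all 8 comparisons (exact permutation p 0.4 to 1). Relative to 1000 mRNA counts of the same library, a ratio that does not depend on how libraries are scaled, the input libraries held 15.9, 15.5 and 17.6 tRNA counts. The mock libraries held 3.87, 7.06 and 6.57, the dsRNA libraries 4.06, 7.13 and 7.06, the silvestrol libraries 4.16, 6.71 and 6.50, and the PEG libraries 10.7, 4.48 and 6.19. Every pellet library lay below every input library (exact permutation p = 0.1, adjusted 0.2 over 8 comparisons, for each pellet group), and the pellet groups overlapped one another.

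Within the tRNA class, the trio of MT-TN, MT-TC and MT-TY, which was grouped after its values were seen, took 38.9% to 43.5% of tRNA counts in input. Its share was 2.95% to 7.27% in mock, 5.00% to 6.92% in dsRNA, 3.02% to 5.62% in silvestrol and 11.6% to 28.9% in PEG. The other 19 tRNAs together gave 9.72, 9.23 and 9.94 counts per 1000 mRNA counts in input, against 3.59 to 6.72 in mock, 3.78 to 6.78 in dsRNA and 3.93 to 6.33 in silvestrol, and 9.45, 3.18 and 4.66 in PEG. The trio gave 6.20 to 7.66 in input, 0.194 to 0.341 in mock, 0.281 to 0.429 in dsRNA, 0.196 to 0.377 in silvestrol and 1.24 to 1.52 in PEG on the same scale. Per 1000 mRNA counts, the trio was below input in every pellet library. On that scale the other 19 tRNAs were below input in every mock, dsRNA and silvestrol library but not in PEG replicate 1, which lay within the input range. In summed CPM the other 19 did not fall in this way. They had 35.5 to 44.4 in input, 33.3 to 75.3 in mock and 52.3 to 78.1 in dsRNA. Silvestrol had 44.8 to 76.4 and PEG 27.6 to 77.2. This sum thus lay above input in every dsRNA and silvestrol library, while mock and PEG overlapped it. MT-TL1 and MT-TP held most of these counts in dsRNA and silvestrol, for example 1274 and 527 of 2124 in dsRNA replicate 1. The sum therefore says little of the rest. In those 2 groups MT-TF and MT-TV had log2 fold changes above 0, and MT-TG, MT-TH, MT-TL2 and MT-TE below 0.

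Gene by gene, 11 of the 13 mRNAs rose in mock, 11 in dsRNA and 11 in silvestrol against input, and the 2 that did not rise were MT-ND5 and MT-ND6 in all 3. Over all 16612 genes tested, the edgeR quasi-likelihood test called 17.6% higher and 15.8% lower in mock, 21.1% higher and 19.6% lower in dsRNA, and 19.4% higher and 18.1% lower in silvestrol, at an adjusted p under 0.05. The median log2 fold change of the 13 mRNAs was 1.45 in mock, 1.66 in dsRNA and 1.61 in silvestrol, beside a median within 0.01 of 0 over all genes. The 11 mRNAs that rose were at log2 fold changes of 1.14 to 1.72 in mock, 1.32 to 1.87 in dsRNA and 1.28 to 1.81 in silvestrol, so the spread among them was small relative to their distance from 0. The comparisons of mock, dsRNA, silvestrol and PEG with input share the 3 input libraries.

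Complex I, NADH:ubiquinone oxidoreductase, takes 7 mitochondrial subunits, which are core proteins of its membrane arm. MT-ND2 had 226, 188 and 153 CPM in the input replicates and 582, 655 and 583 in mock, 909, 619 and 490 in dsRNA, 690, 699 and 557 in silvestrol and 423, 432 and 307 in PEG. Every pellet library was above every input library. Its log2 fold change over input was 1.72 ± 0.16 (SE) in mock, 1.87 ± 0.25 in dsRNA, 1.81 ± 0.18 in silvestrol and 1.08 ± 0.20 in PEG (edgeR adjusted p 0.0036, 0.0025, 0.0024 and 0.0023). Only 3 genes of 16612 in mock, and 1 in dsRNA and in silvestrol, had a higher log2 fold change than MT-ND2.

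MT-ND1 rose by 1.19 ± 0.17 in mock, 1.38 ± 0.20 in dsRNA and 1.29 ± 0.16 in silvestrol on the log2 scale, from 285, 320 and 243 CPM in input to 524, 736 and 627 in mock, 850, 754 and 545 in dsRNA and 646, 782 and 606 in silvestrol. Its PEG libraries, at 443, 453 and 248, reached down into the input range, and PEG against input was not called (0.48 ± 0.23, edgeR adjusted p 0.11; called with the replicate block, adjusted p 0.034). MT-ND4L and MT-ND4, whose reading frames overlap on 1 bicistronic mRNA, both rose in these pellets. MT-ND4L was at 1.56 ± 0.15, 1.66 ± 0.18 and 1.63 ± 0.16 and MT-ND4 at 1.58 ± 0.16, 1.67 ± 0.22 and 1.67 ± 0.17 in mock, dsRNA and silvestrol against input. MT-ND3 rose by 1.38 ± 0.14, 1.55 ± 0.21 and 1.5 ± 0.14 in the same 3 comparisons.

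MT-ND5, the largest of the mRNAs by coding length, did not take part in the rise. It had 302, 274 and 231 CPM in input, 184, 288 and 251 in mock, 268, 304 and 228 in dsRNA and 248, 306 and 241 in silvestrol. These groups overlap fully, with log2 fold changes over input of -0.12 ± 0.19, 0.03 ± 0.16 and 0.01 ± 0.16. Its PEG libraries split, at 368, 94.6 and 83.7 CPM (-0.52 ± 0.50 against input, edgeR adjusted p 0.41). Without PEG replicate 1, MT-ND5 was called lower with PEG, at -1.59 against input (edgeR adjusted p 0.000633) and -1.34 against mock (edgeR adjusted p 0.00079).

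MT-ND6, the single mRNA of the minus strand, moved away from the other mRNAs. Its CPM were 204, 134 and 103 in input, 60.4, 96.2 and 82.3 in mock, 112, 119 and 82.1 in dsRNA, 77.9, 118 and 81.8 in silvestrol and 140, 43.7 and 37.2 in PEG. All mock libraries lay below all input libraries, and the other pellet groups overlapped input. The fall in mock was called (-0.85 ± 0.27, edgeR adjusted p 0.046) but not in dsRNA (-0.46 ± 0.26, adjusted p 0.19) or silvestrol (-0.64 ± 0.27, adjusted p 0.094), and the difference between mock and either was not called. The mock call was lost in 5 of the 6 fits that left out 1 library (all but that without input replicate 3), at log2 fold changes of -1.09 to -0.56. With replicate numbers as a blocking factor, MT-ND6 was called lower in mock, dsRNA, silvestrol and PEG, at -0.81, -0.42, -0.60 and -1.17. Without PEG replicate 1 it was at -1.86 in PEG against input (edgeR adjusted p 0.00253). MT-ND5 and MT-ND6 together fell from 11.1%, 9.02% and 9.35% of mitochondrial mRNA counts in input to 2.63% to 3.67% in the mock, dsRNA and silvestrol libraries, and to 6.22%, 1.57% and 2.04% in PEG.

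Complex III, the cytochrome bc1 complex, has 1 mitochondrial subunit, cytochrome b. MT-CYB had 259, 289 and 229 CPM in input, 587, 844 and 807 in mock, 850, 844 and 701 in dsRNA, 747, 888 and 835 in silvestrol and 671, 736 and 476 in PEG. It was higher in every pellet library than in any input library, by 1.56 ± 0.17, 1.66 ± 0.15, 1.70 ± 0.15 and 1.32 ± 0.19 on the log2 scale.

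Complex IV, cytochrome c oxidase, takes its catalytic core from MT-CO1, MT-CO2 and MT-CO3. MT-CO1 held the most counts of any member outside PEG, with 805, 1121 and 878 CPM in input, 1683, 2327 and 2048 in mock, 2499, 2508 and 1802 in dsRNA, 2210, 2483 and 1975 in silvestrol and 825, 985 and 545 in PEG. Its mock, dsRNA and silvestrol libraries lay above input (1.14 ± 0.18, 1.32 ± 0.19 and 1.28 ± 0.18) and its PEG libraries overlapped input (-0.20 ± 0.22, edgeR adjusted p 0.47). MT-CO3 had 384, 372 and 288 CPM in input, 956, 1196 and 1075 in mock, 1346, 1184 and 954 in dsRNA, 1117, 1263 and 1018 in silvestrol and 1222, 1563 and 1085 in PEG. Unlike MT-CO1, MT-CO3 was above input in every PEG library too, with log2 fold changes over input of 1.66 ± 0.16, 1.78 ± 0.18, 1.73 ± 0.17 and 1.93 ± 0.19. MT-CO2 likewise rose in all 4 comparisons, by 1.27 ± 0.16, 1.38 ± 0.22, 1.37 ± 0.17 and 1.59 ± 0.20.

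Complex V, the ATP synthase, takes MT-ATP6 and MT-ATP8 of its membrane part from 1 bicistronic mRNA with overlapping frames. MT-ATP6 rose by 1.48 ± 0.17, 1.73 ± 0.26, 1.68 ± 0.19 and 1.25 ± 0.20 and MT-ATP8 by 1.45 ± 0.24, 1.70 ± 0.31, 1.61 ± 0.25 and 1.03 ± 0.25 in mock, dsRNA, silvestrol and PEG. The values of this pair were close, and how reads in their shared 46 bases were assigned was not known. All 4 rises were called for both genes.

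Between genes, levels were compared as CPM per kb of exon. In input, MT-ATP8 (932 ± 318), MT-ATP6 (754 ± 160), MT-CO1 (606 ± 107) and MT-CO2 (524 ± 98.2) led the order, each within 1 SD of its neighbour, and MT-ND2 (181 ± 34.7) and MT-ND5 (148 ± 19.8) closed it. In PEG the first 5 were MT-ATP8 (1851), MT-ATP6 (1748), MT-CO3 (1646), MT-CO2 (1534) and MT-ND3 (1107), and MT-CO1 stood at 509 ± 144. How fragments that overlap the edge of a gene were counted was not known, so values per kb of short genes are uncertain. Over the 13 mRNAs, exon length and log2 fold change over input had Spearman coefficients of -0.022 (mock), -0.18 (dsRNA), -0.044 (silvestrol) and -0.24 (PEG), given as a description across genes of the same libraries; over all 16612 genes they were 0.18, 0.18, 0.18 and -0.48. All 6 mRNAs with an incomplete stop codon by annotation were called higher in mock, dsRNA and silvestrol. So were 5 of the 7 with a complete one, MT-ATP6 among them, the exceptions being MT-ND5 and MT-ND6.

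**Figure D1:**
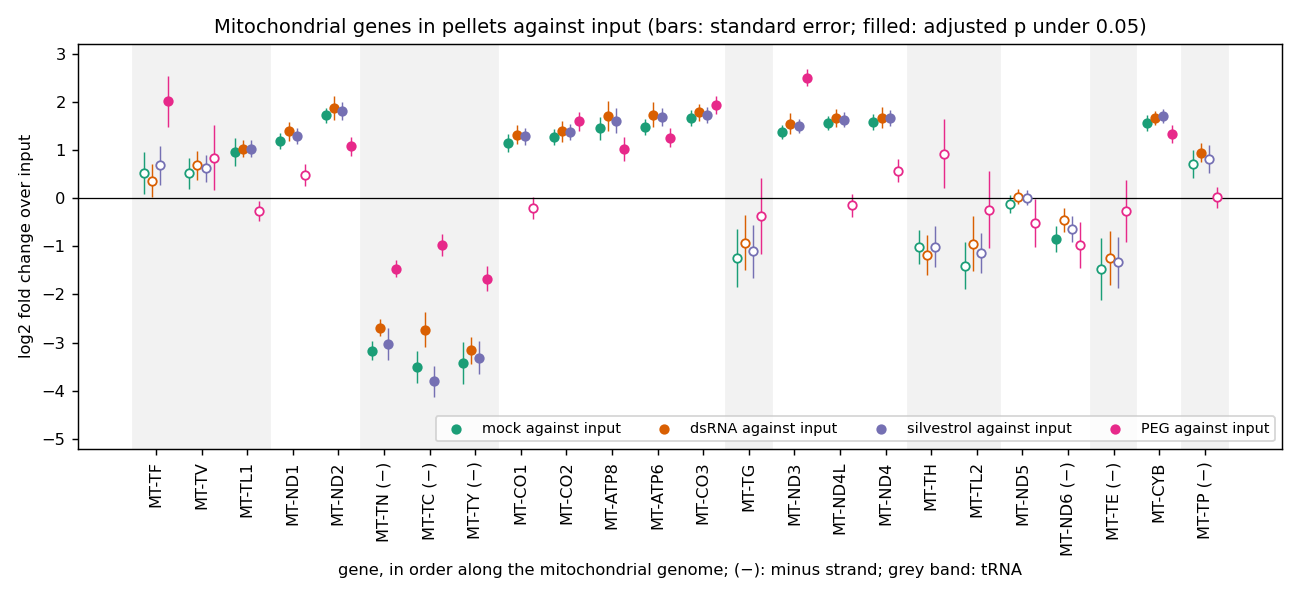
Log2 fold change over input of the 24 mitochondrial genes that passed the filter, in order along the mitochondrial genome, for mock, dsRNA, silvestrol and PEG; bars are standard errors, filled points have an edgeR adjusted p under 0.05, grey bands mark tRNAs and (−) the minus strand. In mock, dsRNA and silvestrol, 11 mRNAs lie between 1.14 and 1.87, MT-ND5 and MT-ND6 at 0.03 or below, and MT-TN, MT-TC and MT-TY between -3.80 and -2.69; PEG differs from mock at MT-CO1, MT-ND4L and MT-ND3 among others.

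MT-TN, MT-TC and MT-TY fell in all 4 pellet groups. MT-TN, with 15.4, 17.5 and 18.3 CPM in input, had 1.65, 2.33 and 1.55 in mock, 2.74, 2.13 and 2.86 in dsRNA, 1.92, 3.14 and 1.15 in silvestrol and 5.11, 7.42 and 5.35 in PEG. MT-TC, with 5.30, 4.80 and 3.68 in input, had 0.359, 0.571 and 0.230 in mock, 0.591, 1.04 and 0.361 in dsRNA, 0.270, 0.470 and 0.229 in silvestrol and 2.48, 2.18 and 2.13 in PEG. MT-TY, with 7.59, 6.23 and 5.39 in input, had 0.599, 0.919 and 0.201 in mock, 0.567, 0.944 and 0.555 in dsRNA, 0.344, 0.941 and 0.604 in silvestrol and 2.55, 1.83 and 1.53 in PEG. For each of them every pellet library lay below every input library and every PEG library above every mock, dsRNA and silvestrol library.

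The log2 fold changes over input of MT-TN were -3.17 ± 0.19, -2.69 ± 0.17, -3.02 ± 0.33 and -1.46 ± 0.17 in mock, dsRNA, silvestrol and PEG. Those of MT-TC were -3.51 ± 0.33, -2.73 ± 0.36, -3.80 ± 0.32 and -0.98 ± 0.23, and those of MT-TY -3.42 ± 0.43, -3.16 ± 0.27, -3.31 ± 0.34 and -1.67 ± 0.26. All 12 were called (edgeR adjusted p 0.00039 to 0.0066), and in mock, dsRNA and silvestrol the trio made up 3 of the 4 lowest log2 fold changes among 16612 genes. Their counts were low in those pellets, 54 to 120 for MT-TN, 8 to 44 for MT-TC and 7 to 40 for MT-TY per library, against 343 to 845, 118 to 232 and 169 to 301 in input.

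Other tRNAs went the other way or were not called. MT-TL1 (tRNA-Leu for UUR codons), at 18, 19.4 and 14 CPM in input, had 18.9, 40.5 and 38.1 in mock, 31.4, 40.9 and 29.5 in dsRNA, 27.8, 39.1 and 35.6 in silvestrol and 18.3, 12.4 and 10.9 in PEG. It was called higher in dsRNA (1.03 ± 0.18, edgeR adjusted p 0.0042), silvestrol (1.03 ± 0.18, adjusted p 0.0044) and mock (0.96 ± 0.28, adjusted p 0.036), and the mock call was lost in 5 of 6 fits that left out 1 library (all but that without mock replicate 1; 0.77 to 1.23). MT-TP had 6.96, 9.84 and 9.79 CPM in input, 8.34, 18.4 and 15.9 in mock, 13, 19.3 and 17.7 in dsRNA, 9.09, 20.8 and 16.1 in silvestrol and 11.3, 6.97 and 7.97 in PEG. It was called higher in dsRNA only (0.94 ± 0.20, edgeR adjusted p 0.0084), while mock (0.71 ± 0.29, adjusted p 0.099) and silvestrol (0.82 ± 0.29, adjusted p 0.06) were not called without the replicate block. MT-TF (tRNA-Phe) was called higher in PEG, with 0.808, 1.80 and 1.44 CPM in input and 10.7, 2.92 and 3.02 in PEG (2.01 ± 0.53, edgeR adjusted p 0.012; 1.10 without PEG replicate 1, adjusted p 0.033). It was not called in the other pellets, but with the replicate block it was called higher in mock (0.54, edgeR adjusted p 0.036) and silvestrol (0.71, edgeR adjusted p 0.0079).

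In all, 1 tRNA rose in mock (MT-TL1), 2 in dsRNA (MT-TL1 and MT-TP), 1 in silvestrol (MT-TL1) and 1 in PEG (MT-TF), and the 3 that fell in each were the trio. MT-TV, MT-TG, MT-TH, MT-TL2 and MT-TE were not called against input in any pellet without the block. MT-TV was at 0.51 ± 0.33 in mock, 0.68 ± 0.30 in dsRNA and 0.62 ± 0.28 in silvestrol. The last 4 had log2 fold changes of -1.47 to -0.92 in mock, dsRNA and silvestrol with standard errors of 0.36 to 0.64. The blocked fit called more members in both directions. Lower were 8 in mock, 6 in dsRNA and 7 in silvestrol, beside 30.1%, 29.1% and 28.7% of all genes, where the fit without it called 4, 3 and 3. Higher were 15, 14 and 15, beside 32.5%, 31% and 30.8% of all genes, where the fit without it called 12, 13 and 12. In PEG it called 10 higher and 4 lower in place of 8 and 3, beside 28% and 27.8% of all genes. Added as higher were MT-TV in mock (0.53), dsRNA (0.70) and silvestrol (0.63), MT-TF and MT-TP in mock and silvestrol, and MT-ND1 and MT-ND4 (0.53) in PEG. Added as lower, beside MT-ND6, were MT-TH and MT-TE in mock, dsRNA and silvestrol, MT-TL2 in mock (-1.35) and silvestrol (-1.05), and MT-TG in mock (-1.11).

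**Figure D2:**
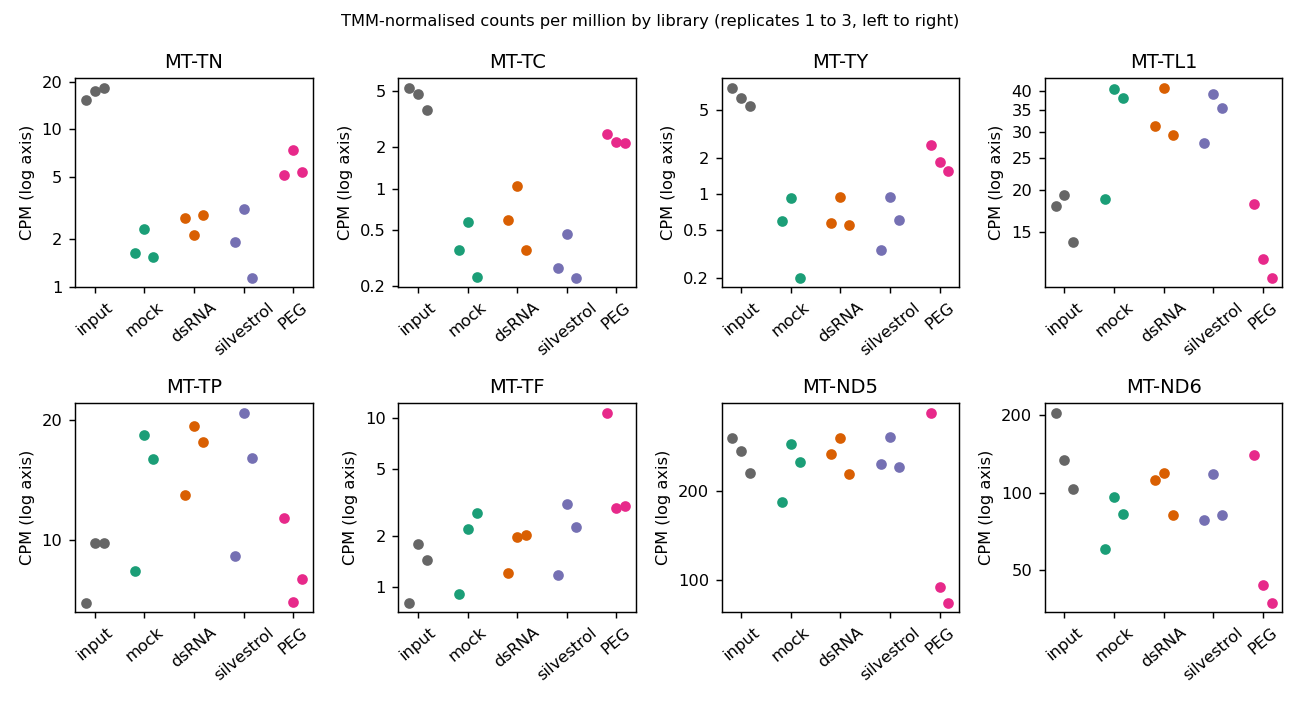
TMM-normalised CPM of 6 tRNAs and of MT-ND5 and MT-ND6 in each of the 15 libraries, on log axes that differ between panels; points are replicates 1 to 3 from left to right. MT-TN, MT-TC and MT-TY drop from input to all pellets with PEG between, MT-TL1 is higher in dsRNA and silvestrol than in input, and PEG replicate 1 stands above the other PEG libraries for MT-TF (10.7), MT-ND5 (368) and MT-ND6 (140).

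The 11 tRNAs that did not pass the filter had between 0 and 79 counts per library. MT-TQ had 5 to 57, MT-TS1 6 to 79, MT-TM 1 to 35, MT-TS2 2 to 28, MT-TK 1 to 20, MT-TW 1 to 19, MT-TI 0 to 17, MT-TT 0 to 15, MT-TD 0 to 10, and MT-TA and MT-TR 0 to 6. Where a library had a count of 0, up to 3 counts are compatible with it, by counting error only. MT-TM had 4, 3 and 1 counts in input and 8, 27 and 11 in mock, while MT-TW had 17, 8 and 19 in input and 1, 6 and 2 in mock, so these sparse tRNAs did not share a direction. MT-TA, which lies 1 base from MT-TN on the same strand, had 2, 2 and 5 counts in input, too few to be compared.

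The pellets of mock, dsRNA and silvestrol reactions were compared to ask whether a translation block alters what pellets. No member was called in dsRNA against mock, silvestrol against mock or dsRNA against silvestrol by edgeR, where 0% of all genes were called. DESeq2 also called no member. Over all genes, DESeq2 called 64 lower in dsRNA against mock, 68 lower in dsRNA against silvestrol and 0 in silvestrol against mock. At an unadjusted p under 0.05, 0 of the 24 members stood out in each, against 374, 35 and 330 of all 16612 genes. The log2 differences of the 13 mRNAs were 0.08 to 0.39 (dsRNA against mock), 0.07 to 0.22 (silvestrol against mock) and -0.04 to 0.18 (dsRNA against silvestrol). Those of the 11 tRNAs were -0.18 to 0.78, -0.29 to 0.26 and -0.32 to 1.07, the last being MT-TC with 13 to 44 and 11 to 18 counts. With the replicate block, MT-ND6 was called higher in dsRNA than in mock (0.40, edgeR adjusted p 0.0016). That fit called 0.15% of all genes higher and 441 of the 16612 lower. In dsRNA against silvestrol the block called no member, and over all genes 39 higher and 414 lower.

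With PEG, 7 of the 13 mRNAs rose against input (MT-ND2, MT-CO2, MT-ATP8, MT-ATP6, MT-CO3, MT-ND3 and MT-CYB), beside 25.5% of all genes higher and 25.9% lower. The median log2 fold change of the 13 was 1.03. MT-ND3 had the highest, with 79.1, 69.0 and 60.6 CPM in input, 195, 176 and 158 in mock, 257, 188 and 149 in dsRNA, 208, 196 and 175 in silvestrol and 371, 450 and 328 in PEG. The PEG libraries were above all others, at 2.5 ± 0.18 over input (edgeR adjusted p 0.00022), and only 7 of 16612 genes had a higher log2 fold change.

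PEG pellets differed from mock pellets in 6 of the 13 mRNAs and 6 of the 11 tested tRNAs. Over all genes, 31.3% were called higher and 32.2% lower, so the members together were called no more often than genes in general. With the replicate block 9 mRNAs were called, MT-CO2 (0.38, edgeR adjusted p 0.018) and MT-CO3 (0.33, adjusted p 0.034) being added as higher and MT-ATP8 (-0.36, adjusted p 0.019) as lower, beside 33.7% of all genes higher and 34.4% lower. MT-ND3 was higher in PEG (1.19 ± 0.16, edgeR adjusted p 0.00011), and MT-ND4L (-1.65 ± 0.23, adjusted p 0.00017), MT-CO1 (-1.29 ± 0.22, adjusted p 0.00064), MT-ND4 (-0.94 ± 0.22), MT-ND1 (-0.65 ± 0.23) and MT-ND2 (-0.57 ± 0.16) were lower. MT-ND4L, at 79.1, 91.7 and 69.9 CPM in input and 207, 261 and 223 in mock, had 96.8, 65.3 and 47.9 in PEG, which overlapped input. The adjacent MT-ND3 and MT-ND4L, separated by the MT-TR gene alone, thus moved in opposite directions between PEG and mock. The MT-ND1 call was lost without mock replicate 2, mock replicate 3 or PEG replicate 3, at -0.76 to -0.39 over all such fits.

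Among the tRNAs, MT-TC (2.59 ± 0.34), MT-TY (1.81 ± 0.45), MT-TN (1.76 ± 0.24), MT-TF (1.57 ± 0.54) and MT-TH (2.00 ± 0.70) were higher in PEG than in mock, and MT-TL1 was lower (-1.16 ± 0.28). The calls of MT-TF and MT-TH rested on single libraries: without PEG replicate 1 they were at 0.72 (edgeR adjusted p 0.18) and 0.63 (adjusted p 0.23), and both were also lost without mock replicate 1, MT-TH without mock replicate 3 too. PEG replicate 1 stood apart from the other PEG libraries in several tRNAs, with 9.62 CPM of MT-TV against 1.19 and 1.63, 8.11 of MT-TL2 against 0.791 and 0.891, and 5.03 of MT-TH against 0.494 and 1.09. It was also the library with the fewest counts. Without it, 7 members in place of 3 were called lower in PEG than in input, and MT-TV turned from 0.39 to -1.08 in PEG against mock. Scaling by library size alone moved the median of all genes to -0.36 in PEG against input and to -0.50 in PEG against mock, and it called 10 members lower in the latter in place of 6.

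As shares of mitochondrial mRNA counts, which do not depend on library scaling, MT-CO1 gave 22.3% ± 4.06 (SD, n = 3) in input, 19.6% ± 1.35 in mock and 10.2% ± 0.986 in PEG. MT-CO3 gave 8.23% ± 0.176, 10.5% ± 0.183 and 17.0% ± 1.80, and MT-ND3 1.65% ± 0.112, 1.74% ± 0.314 and 5.07% ± 0.496 in the same groups. The PEG libraries thus held a different mix of the 13 mRNAs from that of the other groups, which the plot of shares by gene shows.

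**Figure D3:**
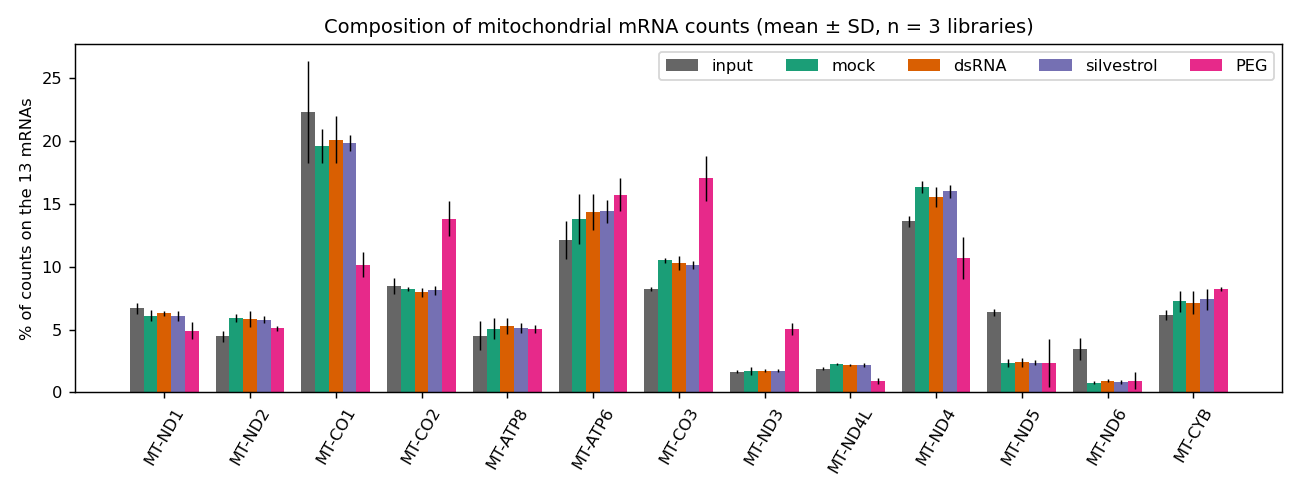
Share of each mRNA in the counts of the 13 mitochondrial mRNAs (%, mean ± SD of 3 libraries) in the 5 groups, in order along the genome. The means of mock, dsRNA and silvestrol lie close together; PEG has less MT-CO1 (10.2%) and more MT-CO3 (17.0%), MT-CO2 and MT-ND3 (5.07%), and MT-ND5 is at 6.38% in input and 2.33% to 2.39% in the pellets, with a wide spread in PEG.

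The subunits of the same complexes that the nucleus encodes moved in the opposite direction in mock, dsRNA and silvestrol. All 74 listed nuclear subunits of complexes I, III, IV and V were tested. Of these, 59 fell in mock, 62 in dsRNA and 61 in silvestrol and none rose, at median log2 fold changes of -0.76, -0.81 and -0.87. Over all genes, 15.8%, 19.6% and 18.1% were called lower in these comparisons, at medians of 0.0012, -0.00054 and 0.0034. In PEG, 72 of the 74 rose and none fell, at a median of 1.10. Over all genes, 25.5% were called higher and 25.9% lower in PEG, at a median of -0.0096. By complex, the silvestrol comparison called lower 27 of 37 subunits of complex I, 9 of 9 of complex III, 11 of 11 of complex IV and 14 of 17 of complex V. In that comparison NDUFA2 of complex I fell from 98.7 ± 12.9 to 43.8 ± 2.64 CPM (-1.14 ± 0.13), UQCR10 of complex III from 96.1 ± 17.3 to 48.1 ± 1.02 (-0.97 ± 0.14), COX5B of complex IV from 155.5 ± 8.99 to 79.8 ± 7.33 (-0.93 ± 0.12) and ATP5PD of complex V from 143.6 ± 5.44 to 57.3 ± 6.41 (-1.29 ± 0.12; mean ± SD of 3 libraries, log2 fold change ± SE). In PEG against input, NDUFB7 of complex I rose by 1.90 ± 0.13, UQCRB of complex III by 1.38 ± 0.16, COX7C of complex IV by 1.70 ± 0.15 and ATP5PD by 1.27 ± 0.14.

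The nuclear genes that transcribe, process and translate mitochondrial RNA moved in both directions. Of 75 tested genes in 6 lists, 12 rose and 21 fell in mock (16% and 28%, beside 17.6% and 15.8% of all genes), 11 and 31 in dsRNA (14.7% and 41.3%, beside 21.1% and 19.6%), 15 and 26 in silvestrol (20% and 34.7%, beside 19.4% and 18.1%), and 27 and 9 in PEG (36% and 12%, beside 25.5% and 25.9%). Of 8 genes for transcription of mtDNA, 1 rose and 4 fell in silvestrol: POLRMT, the mitochondrial RNA polymerase, rose by 1.07 ± 0.14 and TFB2M, its initiation factor, fell by 0.72 on the log2 scale. Of 7 genes for replication, 3 rose and 2 fell, among them POLG, the catalytic subunit of the mtDNA polymerase (1.00 ± 0.14), and SSBP1, the single-strand binding protein (-1.42 ± 0.26). Of 18 genes for processing, polyadenylation and decay, 2 rose and 7 fell, with TBRG4 at 0.81 ± 0.17 and TRMT10C, a subunit of mitochondrial RNase P, at -1.10 ± 0.14. Of 15 genes for modification of tRNA and rRNA, 4 rose and 3 fell, with GTPBP3 at 0.82 ± 0.11 and MTFMT, which formylates the initiator tRNA, at -0.68 ± 0.13. Of 17 aminoacyl-tRNA synthetases, 5 rose and 5 fell, with AARS2 at 0.98 ± 0.17 and WARS2 at -0.74 ± 0.13. Of 10 translation factors, none rose and 5 fell, with MTIF3, an initiation factor, at -1.03 ± 0.15. The median log2 fold changes of these 6 lists in silvestrol were, in the same order, -0.60, -0.18, -0.36, -0.21, 0.025 and -0.48. In PEG the elongation factor TSFM rose by 1.48 ± 0.13 and YARS2, the tyrosyl-tRNA synthetase, by 1.16 ± 0.15, while PDE12, a deadenylase of mitochondrial RNA, fell by 0.86. TFB2M, which fell in silvestrol, rose in PEG (0.74), as did TOP1MT (0.92), TBRG4 (0.87) and CDK5RAP1 (0.92). TFAM (-0.35), TWNK (-0.45), VARS2 (-0.47) and MTRF1L (-0.61) fell in PEG.

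Nuclear copies of mitochondrial genes can share reads with them. Of 412 such copies in the files, 3 passed the filter, and all copies together held 0.566% to 1.03% of the counts of mitochondrial members in a library. MTATP6P1 (chromosome 1, 633696 to 634376) had the highest counts of the copies and was called higher in mock (1.53 ± 0.28), dsRNA (1.42 ± 0.32), silvestrol (1.36 ± 0.25) and PEG (1.32 ± 0.29). MTCO1P12 (chromosome 1, 631074 to 632616) was called higher in mock (0.98 ± 0.23), dsRNA (1.14 ± 0.21) and silvestrol (0.92 ± 0.18) and not in PEG (0.43 ± 0.31). These copies therefore moved with MT-ATP6 and MT-CO1, and whether their reads came from either genome was not tested.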

How the data were processed

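The authors deposited raw counts per gene for each of the 15 libraries. Reads were paired-end and poly(A)-selected; the submitters' processing notes name Trimmomatic 0.36, STAR 2.5.2b, featureCounts of Subread 1.5.2 and GRCh38, and the handling of strand and of multi-mapping reads is not given in the sources used here. All 35 mitochondrial genes had the same start, end and strand in GENCODE release 29.

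The 16612 genes with a count of 10 or more in 2 or 3 replicates of every condition were tested in 8 comparisons on 6 libraries each with edgeR 4.0.16 (TMM, quasi-likelihood F test) in R 4.3.3, with Benjamini-Hochberg adjustment over all of them and a threshold of 0.05. The study's methods name DESeq2, and DESeq2 1.42.0 was an alternative. CPM in the text are TMM-normalised unless stated. Class sums were compared with exact two-sided permutation tests (SciPy 1.17.1). The fit was also run on simulated counts, drawn with the same dispersion for all genes and without a replicate effect. That run does not address the replicate structure of these libraries. Replicate numbers come from the labels as biological replicates, with no statement of how cultures were shared. Same-numbered libraries of different groups deviated together (r 0.131 to 0.861 over 30 pairs). Pairs with different numbers had r of -0.746 to 0.583 over 60 pairs, so the ranges overlap. That overlap came from replicates 2 and 3, whose pairs were all positive (0.109 to 0.583). Every pair of replicate 1 with replicate 2 or 3 was negative (-0.746 to -0.136). Replicate 1 thus deviated from the others in a way shared by the groups, and its source is not stated. The main fits did not use the replicate number. Fits with the number as a block were run beside the others. All members are named, and of the nuclear lists the gene with the lowest adjusted p in each direction in silvestrol or PEG against input, as well as nuclear copies with a mean of at least 100 counts. Members and lists were chosen with earlier results of these data known. Further alternatives were another normalisation, other filters, thinned libraries, all groups in one fit, and leaving out each library. The GC offset was chosen after seeing the data.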

Additional observations from a re-analysis of the deposited data

Results flagged for a closer look

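The test of PEG against mock is also the test of whether their changes over the shared input differ. It was passed by 12 of the 24 tested members, 6 in each direction. Over all genes, 31.3% were called higher and 32.2% lower, so members were called no more often than genes in general. Higher in PEG than in mock, on the log2 scale, were MT-TC (2.59), MT-TH (2.00), MT-TY (1.81), MT-TN (1.76), MT-TF (1.57) and MT-ND3 (1.19). Lower were MT-ND4L (-1.65), MT-CO1 (-1.29), MT-TL1 (-1.16), MT-ND4 (-0.94), MT-ND1 (-0.65) and MT-ND2 (-0.57). Those of MT-TF, MT-TH and MT-ND1 did not hold in every fit that left out 1 library.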

How the results depend on the processing

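Of the 70 calls of members, 65 held under every refitted alternative, and all 70 held under DESeq2, without a filter and with the replicate block; none reversed. The other 5 were MT-TL1 and MT-ND6 in mock against input and MT-TF, MT-ND1 and MT-TH in PEG against mock. Asking also for an absolute log2 fold change over 1 kept 63 of the 70 and left 61 that held throughout, with MT-TP in dsRNA and MT-TC in PEG against input and MT-ND2 and MT-ND4 in PEG against mock as further losses. The class sums kept their direction in all 80 recomputations, and with 3 against 3 libraries their test cannot pass the threshold. Counts of members called lower moved most. Against 4 in mock against input, 10 were called without a filter, 8 with the replicate block and 8 with the replicate block and GC offset. Against 3 in dsRNA, these were 8, 6 and 6, and 5 after thinning to the smallest library. Against 3 in silvestrol, they were 9, 7 and 6, with 5 by DESeq2 and 6 without input replicate 3. Against 3 in PEG, 5 were called without a filter and 7 without PEG replicate 1. For PEG against mock, 10 were called lower with library size only and 3 with an absolute log2 fold change over 1, against 6. In dsRNA against mock the replicate block called 1 member higher, with and without the GC offset. The block removed no call made without it, and the report gives those it added. MT-TV in PEG against mock, at 0.39, ran from -1.08 (without PEG replicate 1) to 0.88 (without PEG replicate 2). Without a filter more members are tested; the other causes were not tested. Planned results for rRNA were not run, since no rRNA row was in the files used. Depth limits the tRNAs, of which 11 of 22 had too few counts to be tested.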
